A study of Mus musculus with 12 samples.

Results

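The CD28 costimulatory family was followed here through 6 genes: the receptors Cd28, Ctla4 and Icos and the ligands Icosl, Cd80 and Cd86. They were chosen by symbol and make up 6 of the 770 genes on the nCounter mouse PanCancer Immune Profiling Panel, or 6 of the 750 genes left for testing once its 20 reference genes were set aside. All 6 were found and none was lost to a filter, since no filter on low counts was used in the main test. The panel counts RNA molecules directly with barcoded probes, without amplification. It was run on 12 A20 tumors, each from a different female Balb/c mouse aged 7 to 8 weeks. A20 is a Balb/c B-cell lymphoma line, and cells of this line had been placed under the skin about 7 days before treatment. Of these tumors, 4 were injected with PBS, 4 with the stable emulsion SE alone, and 4 with GLA-SE, which is 10 µg of GLA in 50 µl of 2% SE and is called G100 in the study. GLA is glucopyranosyl lipid A, a synthetic agonist of the Toll-like receptor TLR4. All tumors received 3 injections into the tumor, given every other day, and were removed 2 h after the last one. The whole tumor was used for RNA, so lymphoma cells, infiltrating immune cells and stroma were measured together, and fewer cells of a type cannot be told apart from less RNA per cell.

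A T cell needs a costimulatory signal beside its antigen receptor in order to respond fully. CD28 gives that signal when it binds CD80 or CD86, which are carried by dendritic cells, macrophages and B cells and rise when these cells are activated, for example by Toll-like receptor agonists. CTLA4 binds the same ligands more tightly than CD28 and restrains the response. It appears on T cells after activation and is carried constantly by regulatory T cells. ICOS, also found on T cells after activation and on follicular helper and regulatory T cells, binds only ICOSL, which B cells and other antigen-presenting cells display. In a B-cell lymphoma the tumor cell belongs to the lineage that carries the ligands, while the receptors belong to T cells that enter the tumor.

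The total deposited count per tumor ranged from 810260 to 1612415. Counts were divided by a size factor per tumor, taken from the geometric mean of 16 reference genes, and the values below are these normalized counts unless another scale is named. One tumor stood apart: SE replicate 4 had a size factor of 0.496, while those of the other 11 tumors lay between 0.803 and 1.50, and its markers of endothelium and fibroblasts summed to 119372 against 3418 to 27933 in the other 11. The labelled cell type was present in each group. The B-cell gene Ms4a1 had a normalized count of 8996 ± 913 (SD, n = 4) in PBS tumors and 6614 ± 740 in GLA-SE tumors, and the 8 B-cell markers together summed to between 14090 and 23283 in every tumor. Cd28 had deposited counts of 28 to 76 and Ctla4 of 31 to 311, so counting error weighs most on these genes. The labels number a separate mouse for each tumor.

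The sequences just upstream of 3 members are shown because the 6 genes are compared as a group below and these windows show what their starts share and do not share. RefSeq promoter entries of GRCm38.p6 were found for Ctla4, Icosl and Cd80. Each is given as the 250 bases before the transcription start, on the plus strand, with matches to the motifs searched in capitals. The windows are chr1:60908775-60909024 for Ctla4, chr10:78069118-78069367 for Icosl and chr16:38458683-38458932 for Cd80, and each ends at the base before the gene's annotated start.
Ctla4: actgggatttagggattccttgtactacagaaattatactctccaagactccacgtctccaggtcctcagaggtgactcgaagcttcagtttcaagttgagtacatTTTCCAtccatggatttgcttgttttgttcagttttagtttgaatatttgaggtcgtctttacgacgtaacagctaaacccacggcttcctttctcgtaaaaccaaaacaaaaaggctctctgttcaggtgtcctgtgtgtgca
Icosl: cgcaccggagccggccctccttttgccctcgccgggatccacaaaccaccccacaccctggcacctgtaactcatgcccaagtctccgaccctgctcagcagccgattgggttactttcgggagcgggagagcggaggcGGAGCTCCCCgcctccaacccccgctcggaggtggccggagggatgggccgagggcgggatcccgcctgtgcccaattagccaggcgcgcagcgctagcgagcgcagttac
Cd80: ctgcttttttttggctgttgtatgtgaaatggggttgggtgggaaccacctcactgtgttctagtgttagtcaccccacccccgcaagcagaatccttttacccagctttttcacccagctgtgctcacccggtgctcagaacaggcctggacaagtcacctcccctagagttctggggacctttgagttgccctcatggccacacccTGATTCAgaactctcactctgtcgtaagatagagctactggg
Motifs were searched on both strands: the NFAT core TGGAAA, the kappa B motif, the interferon response element ISRE, the AP-1 motif (TGANTCA), the interferon-gamma motif GAS (TTCNNNGAA) and the TATA box (the letters TATAAA), and matches did not overlap. The Ctla4 window held 1 NFAT match, read on the minus strand and starting 144 bases before the start site. The Icosl window held 1 kappa B match that started 111 bases before the start site. In the Cd80 window the 1 match was to AP-1, starting 42 bases before the start site. No motif was shared between the 3 windows. Among all 32851 promoter windows of the table, cut to the same length, 18.6% held the NFAT motif, 7.25% the kappa B motif and 6.75% AP-1, so that each match is a common one. The remaining motifs, without a match in these 3 windows, were found in 7.02% (GAS), 2.98% (ISRE) and 12.4% (TATA) of all windows. In the RefSeq gene table Cd28, Ctla4 and Icos lie next to each other on chromosome 1, with 0 protein-coding genes between Cd28 and Ctla4 and 0 between Ctla4 and Icos. Cd80 and Cd86 are both on chromosome 16, with 24 protein-coding genes between them.

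The first comparison asked how the members differed between tumors injected with GLA-SE and with PBS. All 6 were higher in GLA-SE tumors by edgeR's quasi-likelihood test at an adjusted p under 0.05, and in 5 of them every GLA-SE tumor lay above every PBS tumor. The rise was largest for Cd80, followed by Icos and Ctla4, and smallest for Cd28. The panel as a whole moved the same way: 68.8% of the 750 tested genes were called, 68.4% of the 750 as higher, and the groups did not overlap in that direction for 63.7% (1.07% in the other). A count of 6 of 6 members is therefore to be read against a panel where most genes rose. The median log2 fold change was 1.51 over the 6 members and 0.90 over all tested genes.

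Cd28, the constitutive costimulatory receptor of T cells, had the smallest difference. Its normalized counts in PBS replicates 1 to 4 were 54.0, 26.2, 36.5 and 30.2, and in GLA-SE replicates 1 to 4 they were 73.5, 47.9, 66.2 and 64.4. GLA-SE replicate 2 lay below PBS replicate 1, so the groups overlapped, while the other GLA-SE tumors were above all PBS tumors. The log2 fold change was 0.78 (SE 0.27, adjusted p = 0.0280 from edgeR), with an exact permutation p of 0.0571. This was below the panel's median of 0.90, but without PBS replicate 1 it was 1.02 against a median of 0.98, and without GLA-SE replicate 2 both were 0.89. Leaving out a tumor lifted the adjusted p above the threshold in 5 of 8 fits: it was 0.0717, 0.0605 and 0.0739 without PBS replicates 2, 3 and 4, and 0.0658 and 0.0523 without GLA-SE replicates 1 and 4 (edgeR).

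Ctla4, the inhibitory receptor that competes with CD28 for the same ligands, rose more. Normalized counts of Ctla4 in the PBS tumors were 77.7, 57.0, 36.5 and 81.9, and in the GLA-SE tumors 145, 174, 343 and 162. The lowest GLA-SE tumor was thus well above the highest PBS tumor, and replicate 3 was the highest of all 12 tumors. The log2 fold change was 1.70 (SE 0.36, adjusted p = 0.00391 from edgeR, exact permutation p = 0.0286). With 4 tumors in each group this exact test cannot give a p under 0.0286.

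Icos, the inducible receptor, behaved like Ctla4 in size and in its highest tumor. PBS tumors had 95.7, 36.4, 71.6 and 77.1 normalized counts of Icos, and GLA-SE tumors had 152, 149, 477 and 202. The groups did not overlap, and GLA-SE replicate 3 was again the highest by a wide margin. The log2 fold change of Icos was 1.80 (SE 0.45, adjusted p = 0.00781 from edgeR, exact permutation p = 0.0286).

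Among the ligands, Cd80 had the largest change of the family and ranked 42 of 750 by log2 fold change. Its values in the PBS tumors were close together, at 108, 116, 93.5 and 135, whereas the GLA-SE tumors spread from 227 through 342 and 448 to 1360 (replicates 1, 2, 4 and 3). Every GLA-SE tumor exceeded every PBS tumor, and the spread within the GLA-SE group was itself wide. The log2 fold change was 2.39 (SE 0.53, adjusted p = 0.00472 from edgeR, exact permutation p = 0.0286). Without GLA-SE replicate 3 it was 1.58, still called (adjusted p = 0.000734, edgeR).

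Cd86, the other ligand of CD28 and CTLA4, had a smaller but tighter rise. Normalized counts were 262, 178, 245 and 219 in PBS tumors and 430, 545, 829 and 442 in GLA-SE tumors. The groups were clear of each other, with GLA-SE replicate 3 highest. With a log2 fold change of 1.31 and an SE of 0.24, Cd86 had the smallest adjusted p of the members, 0.00186 (edgeR, exact permutation p = 0.0286).

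Icosl, the only ligand of ICOS, had values of 369, 308, 313 and 365 in PBS tumors. In GLA-SE tumors they were 498, 540, 1269 and 482. Replicate 3 stood far above the other GLA-SE tumors, which lay close together and above all PBS tumors. The log2 fold change was 1.04 (SE 0.32, adjusted p = 0.0180 from edgeR, exact permutation p = 0.0286), and it fell to 0.58 without GLA-SE replicate 3, where the adjusted p was 0.00335. By rank among the 750 tested genes, Icos was at 90, Ctla4 at 111, Cd86 at 224, Icosl at 316 and Cd28 at 425.

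**Figure D1:**
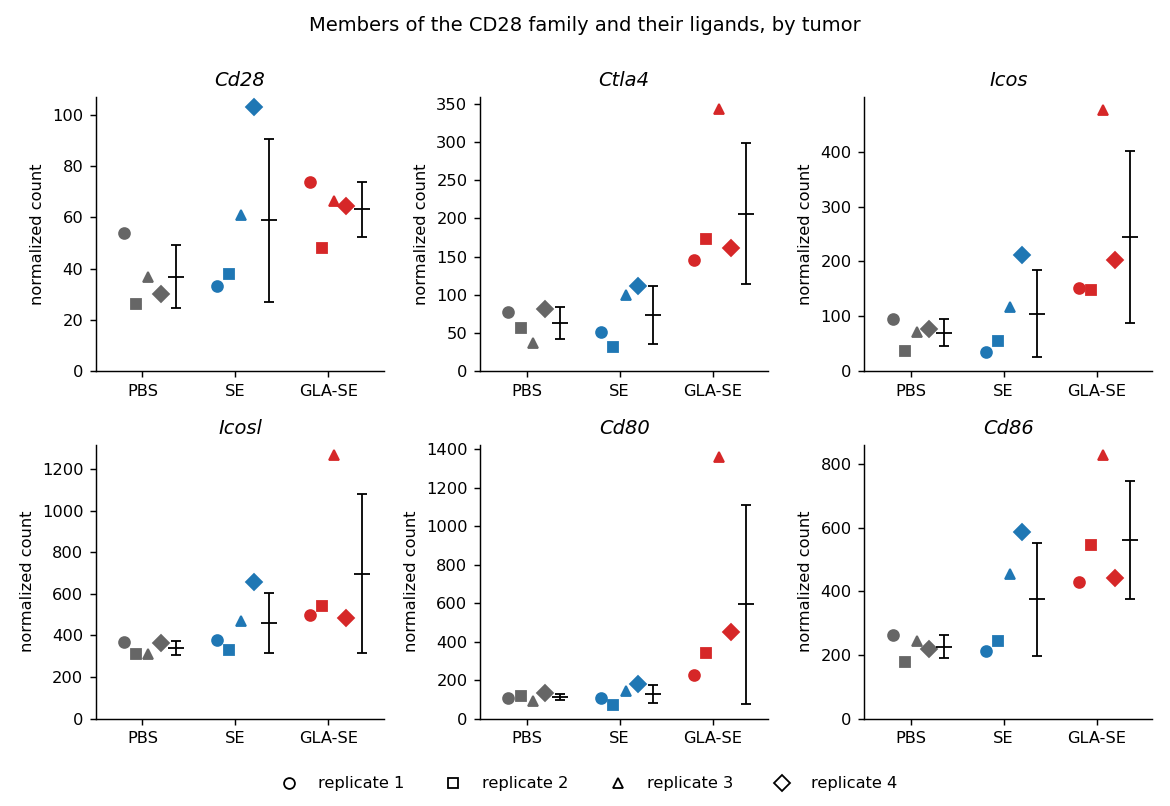
Normalized counts (y axis, linear, from 0) of the 6 genes in each PBS, SE and GLA-SE tumor, with the group mean and SD beside the points (n = 4). In GLA-SE tumors all points for Ctla4 and Cd80 lie above those of both other groups, and replicate 3 is the highest GLA-SE tumor for 5 of the 6 genes, at 1360 for Cd80.

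GLA-SE replicate 3 was the highest GLA-SE tumor for Ctla4, Icos, Icosl, Cd80 and Cd86 but not for Cd28, where replicate 1 was highest. In the same tumor the 6 neutrophil markers summed to 9019, against 817 to 2175 in the other GLA-SE tumors, and the monocyte and macrophage markers to 132520 against 90447 to 97186. Their part in the high values was not tested. Without this tumor all 6 genes were still called, with log2 fold changes of 1.34 for Ctla4, 1.25 for Icos, 1.06 for Cd86 and 0.76 for Cd28 in addition to those given for Cd80 and Icosl (adjusted p = 0.0479 for Cd28 and smaller for the other members, edgeR). That fit called 65.1% of all tested genes, with a panel median of 0.75. Cd28 was thus near the panel's median and Icosl, at 0.58, below it.

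The second comparison, of SE with PBS, asked what the emulsion did without GLA, and it used the same PBS tumors as the first. No member was called, and neither was any other gene (0% of 750, edgeR). At an unadjusted p under 0.05 there were 134 genes and 0 members. DESeq2 with the same scaling called 53 genes, and with its own size factors 12, with 0 members in either. The SE tumors were spread widely, and in normalized counts replicates 3 and 4 were the highest 2 of the group for all 6 members. This order rests on the scaling and, in deposited counts, held for Icos alone. Deposited counts in SE replicates 1 to 4 were 52, 54, 94 and 105 for Icos but 569, 324, 376 and 326 for Icosl.

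Cd28 had normalized counts of 33.3, 37.8, 61.0 and 102.9 in SE replicates 1 to 4. After scaling, the last was the highest of all 12 tumors, while the first was within the PBS range. The deposited count of Cd28 in SE replicate 4 was 51, below the 57 of PBS replicate 1, and that tumor's size factor was 0.496. The log2 fold change of Cd28 against PBS was 0.66 (SE 0.45, adjusted p = 0.334, edgeR). Ctla4 had 50.6, 31.7, 99.6 and 111, a log2 difference of 0.20 (SE 0.48, adjusted p = 0.771, edgeR). Icos ranged from 34.6 and 55.2 to 117 and 212, a difference of 0.56 on the log2 scale (SE 0.60, adjusted p = 0.532, edgeR). In normalized counts, SE replicates 3 and 4 were above all PBS tumors for each of the 3 receptors and replicates 1 and 2 were not.

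Cd80 had 109, 72.6, 144 and 180 in the SE tumors, giving the smallest log2 fold change of the family in this comparison, 0.16 (SE 0.34, adjusted p = 0.765, edgeR). Cd86 had 211, 245, 456 and 587 and the largest, 0.73 (SE 0.36, adjusted p = 0.256, edgeR). Icosl had 379, 331, 468 and 658, with 0.44 (SE 0.24, adjusted p = 0.277, edgeR). All 6 groups overlapped with PBS, and 8% of tested genes had every SE tumor above every PBS tumor. The medians of the log2 fold changes were 0.50 over the members and 0.51 over the panel. An adjusted p above the threshold does not show that SE and PBS tumors were alike.

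Other measures, scaled by the same size factors, moved with the split inside the SE group. Monocyte and macrophage markers summed to 27242 and 33896 in SE replicates 1 and 2 and to 81376 and 118331 in replicates 3 and 4. The 11 T-cell markers summed to 1264, 1386, 2997 and 9876 in the same order, and the endothelial and fibroblast markers to 3418, 4276, 27933 and 119372. Whether these contents set the members' levels was not tested. Leaving out SE replicate 4 turned the SE against PBS log2 fold changes of Ctla4, Icos and Cd80 slightly negative, at -0.07, -0.04 and -0.06.

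The third comparison, of GLA-SE with SE, asked what GLA added to its emulsion and shares its tumors with the comparisons above. The labels give the volume and the percent of emulsion for GLA-SE tumors only, so an equal amount of emulsion was assumed. No member was called, against 2.13% of tested genes (16 of 750, edgeR). At an unadjusted p under 0.05 there were 139 genes, among them 2 members, Cd80 and Ctla4. For these 2 every GLA-SE tumor lay above every SE tumor, a pattern seen in 14.7% of tested genes, and in the opposite direction in 0.133%. The lowest GLA-SE tumor had 227 normalized counts of Cd80 and the highest SE tumor had 180. For Ctla4 the corresponding values were 145 and 111.

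The log2 fold change of Cd80 was 2.24 (SE 0.61, adjusted p = 0.104, edgeR), which ranked 19 of 750, and that of Ctla4 was 1.50 (SE 0.51, adjusted p = 0.167, edgeR), ranking 50. Both had an exact permutation p of 0.0286. Icos had 1.24 (SE 0.66, adjusted p = 0.374, edgeR), with SE replicate 4 above all GLA-SE tumors except replicate 3. For Icosl, Cd86 and Cd28 the differences were 0.60, 0.58 and 0.11, with adjusted p of 0.483, 0.518 and 0.932 (edgeR). SE replicate 4 was above 3 GLA-SE tumors for Icosl and Cd86 and above all 4 for Cd28. These positions of SE replicate 4 rest on the scaling. Its deposited counts of Icos, Icosl, Cd86 and Cd28 were 105, 326, 291 and 51. The lowest deposited counts among GLA-SE tumors were 143, 471, 432 and 46. The median over the 6 members was 0.92 and over all tested genes 0.25.

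Whether a member was called turned on the test. DESeq2 with the reference scaling called Cd80 (adjusted p = 0.00166) and Ctla4 (adjusted p = 0.0190), and one edgeR fit over all 12 tumors called Cd80 alone (adjusted p = 0.0233). Over the panel these fits called 15.7% and 10.5% of the tested genes. Leaving out any 1 tumor called 0 members. Without GLA-SE replicate 3 the log2 fold changes fell to 1.43 for Cd80, 1.13 for Ctla4, 0.69 for Icos and 0.14 for Icosl (adjusted p = 0.189, 0.404, 0.860 and 0.958, edgeR). Without SE replicate 4 the number of genes called over the panel rose to 105, and Cd80 and Ctla4 stood at log2 fold changes of 2.45 and 1.77 with adjusted p of 0.0546 and 0.0610 (edgeR). Without both that tumor and GLA-SE replicate 3, an alternative added after the values were seen, they were 1.64 and 1.40 with adjusted p of 0.0511 and 0.105 (edgeR), and 52 genes were called.

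**Figure D2:**
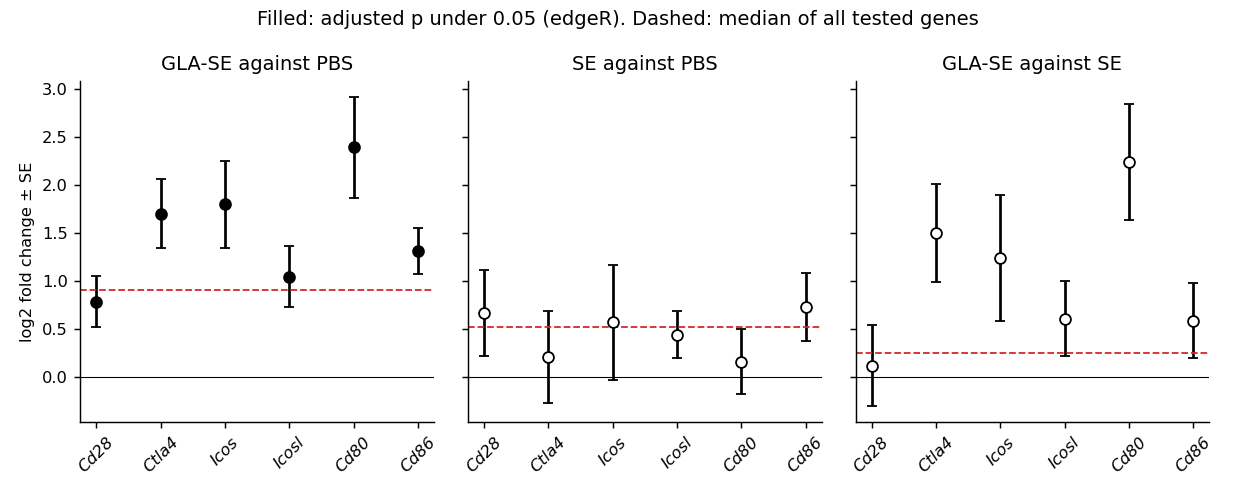
Log2 fold changes (y axis) with standard errors for the 6 genes in GLA-SE against PBS, SE against PBS and GLA-SE against SE, from edgeR on 4 tumors per group, filled where the adjusted p was under 0.05. The dashed line is the median of all 750 tested genes, at 0.90, 0.51 and 0.25 from left to right, and only the first panel has filled points, 6 of 6.

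Ratios within a tumor do not depend on how the tumors were scaled, apart from the pseudocount of 1 added before taking log2. In all, 10 ratios were compared in 3 comparisons by exact permutation tests, two-sided, with Benjamini-Hochberg adjustment over the 30 tests, and 0 of the 30 passed at 0.05. Those with the smallest possible p of 0.0286 had an adjusted p of 0.122. The level of a ratio has no meaning on its own, since probes differ in efficiency, but its difference between groups does.

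Between receptors, the log2 ratio of Ctla4 to Cd28 was 0.97, 1.84, 2.36 and 1.31 in GLA-SE replicates 1 to 4, and 0.59, -0.25, 0.70 and 0.11 in SE replicates 1 to 4. Every GLA-SE tumor was above every SE tumor, and the means differed by 1.33 (exact permutation p = 0.0286). Against PBS, whose tumors had 0.52, 1.09, 0.00 and 1.41, the groups overlapped and the difference was 0.86 (exact permutation p = 0.143). The mean ratio of Icos to Cd28 differed by 1.14 from SE (exact permutation p = 0.0286) and by 0.89 from PBS, with overlap (exact permutation p = 0.0571). GLA-SE and SE tumors barely cleared each other, the lowest GLA-SE tumor having 1.037 and the highest SE tumor 1.035, and with a pseudocount of 10 the exact permutation p was 0.0571.

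Between the ligands of CD28 and CTLA4, the log2 ratio of Cd80 to Cd86 was -0.91, -0.67, 0.71 and 0.02 in GLA-SE tumors. In SE tumors it was -0.95, -1.74, -1.65 and -1.70, all below the GLA-SE tumors but only by a small step for replicate 1. The means differed by 1.30 from SE (exact permutation p = 0.0286) and by 0.78 from PBS, where the groups overlapped (exact permutation p = 0.143). SE tumors had a lower mean ratio than PBS tumors, by -0.52, again with overlap (exact permutation p = 0.114). For Icosl to Cd86 the differences were -0.36 from PBS and -0.13 from SE, and both overlapped (exact permutation p = 0.0857 and 0.571).

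Set against the mean log2 level of 11 T-cell markers, Cd28 differed little between GLA-SE and PBS tumors, by -0.11 (exact permutation p = 0.657). The ratios of Ctla4 and Icos to these markers were 0.75 and 0.78 higher in GLA-SE tumors on the log2 scale, with overlapping groups (exact permutation p = 0.0857 and 0.0571). Against SE, the ratio of Cd28 to the T-cell markers differed by -0.77 in GLA-SE tumors (exact permutation p = 0.0857). SE replicates 1 to 3 had the 3 highest values of this ratio among all 12 tumors, at -1.20, -1.30 and -1.24.

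The ligands were set against the mean log2 level of 8 B-cell markers. Relative to these, all GLA-SE tumors lay above all PBS tumors for Cd80, Cd86 and Icosl, with differences of 2.09, 1.32 and 0.96 on the log2 scale (exact permutation p = 0.0286 for each). In this comparison the B-cell list had a median log2 fold change of -0.05 and the panel 0.90. A typical panel gene therefore also rose relative to these markers, and the difference for Icosl is to be read against that. Against SE the mean for Cd80 differed by 1.91 (exact permutation p = 0.0286), but the lowest GLA-SE tumor, at -2.314, was barely above the highest SE tumor, at -2.328, and with the median of the list the difference was 1.79 (exact permutation p = 0.0571). Cd86 and Icosl overlapped with SE, at 0.61 and 0.48 (exact permutation p = 0.257 and 0.286). The ligands are also carried by macrophages and dendritic cells, and these ratios do not tell which cells carried them.

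**Figure D3:**
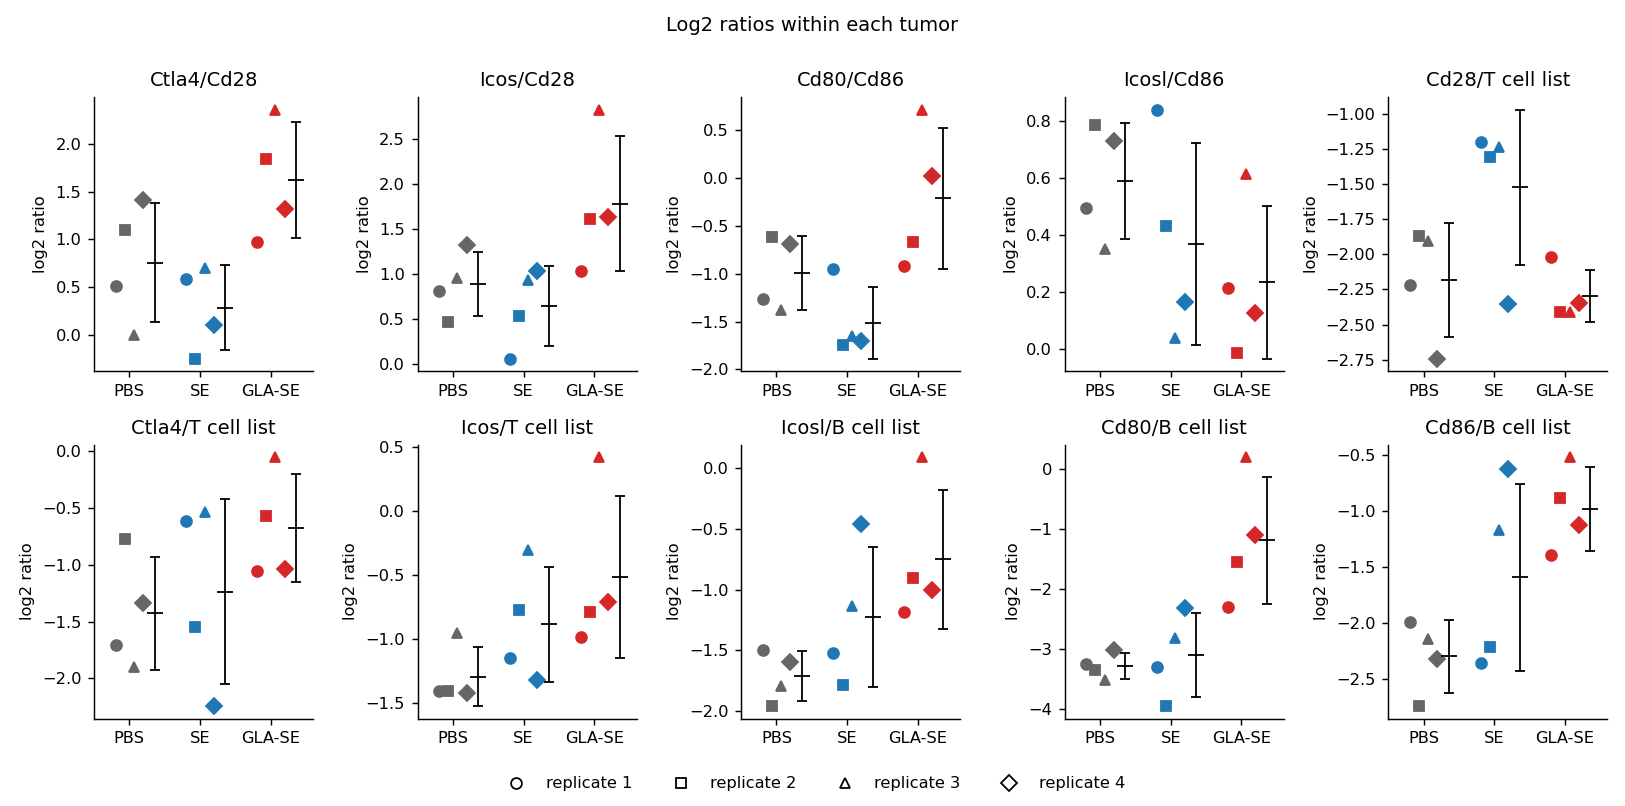
Log2 ratios within each tumor (y axis) for 10 pairs, with group mean and SD (n = 4): members over each other, receptors over the mean log2 level of the T-cell markers and ligands over that of the B-cell markers. GLA-SE tumors do not overlap with SE tumors for Ctla4/Cd28, Icos/Cd28, Cd80/Cd86 and Cd80 over the B-cell list, the last 3 by a narrow step, and do not overlap with PBS tumors for the 3 ligands over the B-cell list.

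The size of the GLA-SE against PBS differences depended on the scaling. Reference genes put the median of the panel at a log2 fold change of 0.90, no scaling at 0.61, TMM at -0.01 and the panel median at -0.40. The panel's calls moved with it, from 513 higher and 3 lower to 351 higher and 17 lower with no scaling. They were 148 higher and 168 lower under TMM and 61 higher and 307 lower under the panel median. The members were called as 6 of 6 with reference genes, 4 of 6 with no scaling, 1 of 6 (Cd80, edgeR) with TMM and 0 of 6 with the panel median. Cd80, Icos and Ctla4 kept a positive log2 fold change under every scaling tried, down to 0.97, 0.46 and 0.38 under the panel median. Cd86, Icosl and Cd28 turned negative there, at -0.02, -0.32 and -0.47, and Cd28 also under TMM, at -0.10. A scaling moves all genes of a tumor together, so the order of the members against the panel's median is hardly touched by it. In GLA-SE against SE, Ctla4 had every GLA-SE tumor above every SE tumor under all 5 scalings, and Cd80 under all except the panel median. The share of tested genes with this pattern was 14.7% with the kept reference genes and 15.2% with all reference genes. It was 24.4% with no scaling, 9.73% under TMM and 2.53% under the panel median.

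**Figure D4:**
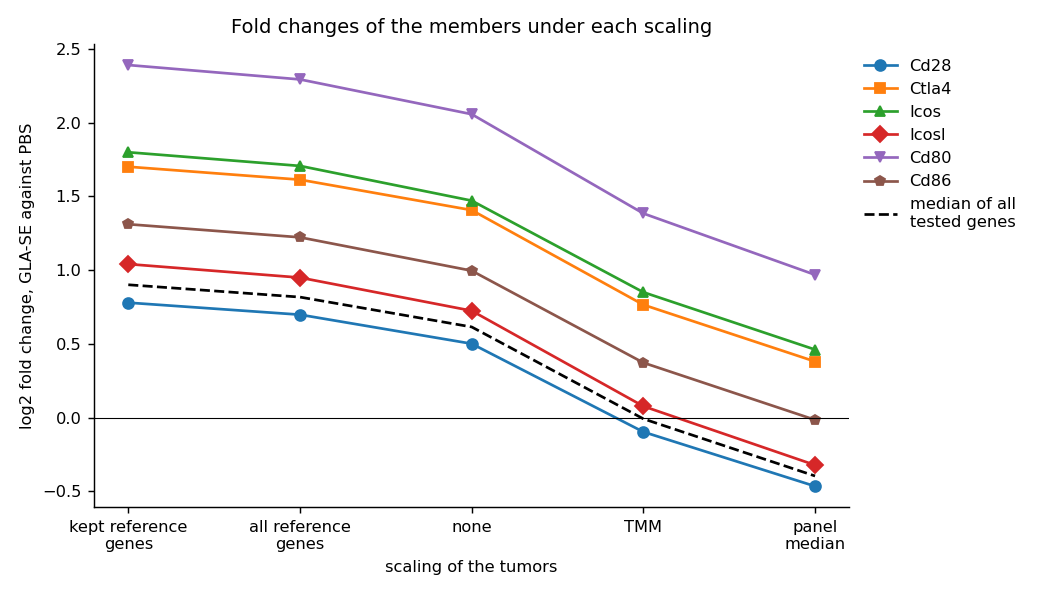
Log2 fold change of GLA-SE against PBS (y axis) for the 6 genes under 5 ways of scaling the tumors (x axis), with lines joining the values of one gene and the dashed line giving the median of all tested genes. The lines run in parallel, Cd80 highest and Cd28 lowest, from 2.39 and 0.78 with the kept reference genes to 0.97 and -0.47 with the panel median.

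Across the 12 tumors the members varied together, as described by Pearson's r of log2(normalized count + 1). These tumors share 3 treatments and one scaling, so r describes them and carries no test. The highest values were 0.94 for Icos and Cd86 and 0.93 for Ctla4 and Cd80, and the lowest was 0.50 for Cd28 and Cd80. After each group's mean was taken away, Icos and Cd86 still had 0.94 and Icosl and Cd80 had 0.91, while Cd28 and Cd80 had 0.29. Icos is a receptor of T cells and Cd86 a ligand on antigen-presenting cells, so the closest pair joined the 2 sides of the family.

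The panel genes most like each member were found by the same r over 12 tumors among 668 genes with a mean normalized count of at least 20. Cd28 was closest to Klrc2, an NK-cell receptor gene, at 0.94, then to H2-Q2 and Flt3l. Ctla4 was closest to the adenosine receptor gene Adora2a at 0.96, then to Tlr2 and Itgb2. Icos was closest to Foxp3, the transcription factor of regulatory T cells, at 0.95, then to Csf3r and Arg2. For the ligands the leading genes were Ccrl2, a chemokine receptor-like gene, for Icosl at 0.99, Mefv, the pyrin gene, for Cd80 at 0.98, and H2-T23, a nonclassical class I gene, for Cd86 at 0.98. Next came Tank and Hcst for Icosl, Lcp1 and Nos2 for Cd80, and Irak2 and Litaf for Cd86. Cd80 and Mefv both had all GLA-SE tumors above all SE tumors, Mefv at 2.19 on the log2 scale (adjusted p = 0.104, edgeR).

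Other genes of the same receptor and ligand family rose as well in GLA-SE against PBS: 5 of 5 were called higher, with a median log2 fold change of 1.30, against 68.4% of the panel. Cd274, which encodes the PD-1 ligand PD-L1, rose from 976 ± 159 to 3325 normalized counts, a log2 fold change of 1.77 (SE 0.28, adjusted p = 0.000952, edgeR). Pdcd1lg2, the second PD-1 ligand, rose by 1.32, and Cd276, encoding B7-H3, by 0.80, while the receptors Pdcd1 and Btla rose by 1.30 and 0.47 on the log2 scale. In GLA-SE against SE 0 of these 5 were called, as for the 6 members, and in SE against PBS 0 of 5.

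Genes downstream of CD28 and the T-cell receptor were called higher in 13 of 16 and lower in 0. Their median, 0.51, was below the panel's 0.90. The largest differences among those named were for Nfatc2, a calcium-dependent transcription factor, at 1.15 (adjusted p = 0.00211, edgeR) and the kinase gene Txk at 1.11 (adjusted p = 0.00520), and Pik3cd, a PI3-kinase catalytic subunit, rose by 0.40 (adjusted p = 0.00692). Of the genes that activated T cells turn on, 6 of 10 were higher and 0 lower, a smaller share than the panel's 68.4%. Il4, Cd40lg, Il2 and Bcl2l1 had 0.76, 0.38, 0.32 and 0.03 and were not called. Il2 was scarce, with mean normalized counts of 14.6 in PBS and 18.2 in GLA-SE tumors (adjusted p = 0.364, edgeR). Il2ra, the high-affinity chain of the IL-2 receptor, rose from 153 ± 50.8 to 736 ± 255 normalized counts, a log2 fold change of 2.27 (adjusted p = 0.000701, edgeR), and Ifng and Tnfrsf4, which encodes OX40, by 1.34 and 1.20.

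Activation genes of antigen-presenting cells were called higher in 12 of 13 and lower in 0, against 68.4% of the panel called higher. Their median was 1.19, against the panel's 0.90. Icam1, an adhesion molecule of the same contact, rose by 1.47 (adjusted p = 0.000538, edgeR), and the transcription factor genes Irf8 and Irf4 by 0.92 and 1.72. Cd40, which drives CD80 and CD86 expression when engaged by CD40L, rose from 491 ± 35.5 to 941 ± 491 normalized counts (log2 fold change 0.94, adjusted p = 0.0223, edgeR). Tnfsf4, encoding OX40L, was the one gene of these 4 lists that was also called in GLA-SE against SE, at 1.98 (SE 0.36, adjusted p = 0.0273, edgeR), and it was named for that reason after its values were seen.

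Markers of the cells that carry the members moved too, and in GLA-SE against PBS their part in the members' rise was not tested. T-cell markers were higher in 6 of 11 and lower in 0, a smaller share than the panel's 68.4%, with a median log2 fold change of 0.83 against 0.90 over the panel. Among them were Cd3e at 0.82 (adjusted p = 0.0393, edgeR) and Cd4 at 0.79 (adjusted p = 0.0180), while Cd8a had 0.86 and did not pass (adjusted p = 0.0674). Their summed normalized counts were 1489 to 3759 in PBS and 4535 to 6050 in GLA-SE tumors, so the 2 groups did not overlap. Cd28, at 0.78, lay within the range of these markers. Ctla4 and Icos, at 1.70 and 1.80, were above all 11, the highest of which was Thy1 at 1.44, while Cd247 was at 0.83. Without GLA-SE replicate 3, Ctla4 and Icos had 1.34 and 1.25, and with all tumors their ratios to these markers overlapped between the groups. Markers of regulatory T cells, which carry CTLA4 constantly, were higher in 3 of 4: Foxp3 by 1.33 (adjusted p = 0.00736, edgeR), Tnfrsf18 by 1.34 and Ikzf2 by 0.99. Of the 4 genes listed for follicular helper T cells, which carry ICOS, 2 were higher, Cxcr5 by 0.86 and Maf by 1.11. Sh2d1a had 0.76 (adjusted p = 0.0586, edgeR). Bcl6, a transcription factor gene of the same list, had -0.43 (adjusted p = 0.0898, edgeR), with every GLA-SE tumor below every PBS tumor (exact permutation p = 0.0286). In PBS tumors the mean normalized counts of Cxcr5 and Bcl6 were 823 and 1448, above those of Cd3e, 389, and Cd4, 171, though probes differ in efficiency. Which cells of this B-cell lymphoma carried Cxcr5 and Bcl6 was not tested.

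On the ligand side, B-cell markers did not rise: 0 of 8 were higher and 2 lower, Ms4a1 by -0.44 (adjusted p = 0.00781, edgeR) and Cd79b by -0.41 (adjusted p = 0.00637), and Cd22 and Cd79a had 0.31 and -0.22 (adjusted p = 0.0764 and 0.339). Markers of monocytes and macrophages were higher in 9 of 9, Csf1r by 1.62, C1qa by 1.39 and C1qb by 1.32 (adjusted p = 0.000107 for each, edgeR), with sums of 32283 to 40694 in PBS and 90447 to 132520 in GLA-SE tumors. Dendritic-cell markers were higher in 2 of 6, Itgax by 0.92 and CD209e by 0.87, and Lamp3 had 0.52 (adjusted p = 0.173, edgeR). Flt3, Cd207 and Xcr1 had 0.29, 0.10 and -0.06 and were not called, and the list's median was 0.40 against the panel's 0.90. Neutrophil markers were higher in 3 of 6 (S100a8 by 5.04, Csf3r by 2.23 and Cxcr2 by 3.21), while Camp, Ltf and Mpo had 0.61, 0.37 and -0.02 and were not called. NK-cell markers were higher in 3 of 5 (Ncr1 by 1.66, Klrd1 by 1.32 and Klra7 by 1.28), while Klra4 and Klrb1c had 0.03 and -0.26 and were not called. The shares of the dendritic-cell, neutrophil and NK-cell lists were all below the panel's 68.4%. Endothelial and fibroblast markers were higher in 8 of 8 (Col1a1 by 1.70, Col3a1 by 1.64 and Pecam1 by 1.15). None of these lists had a marker at the lowest value of the table in all tumors of a group, but some markers had low counts. In PBS tumors the mean normalized count was under 20 for 3 of 6 neutrophil, 2 of 5 NK-cell and 2 of 6 dendritic-cell markers. In SE against PBS 0 genes of every list were called, and in GLA-SE against SE 0 of every marker list.

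**Figure D5:**
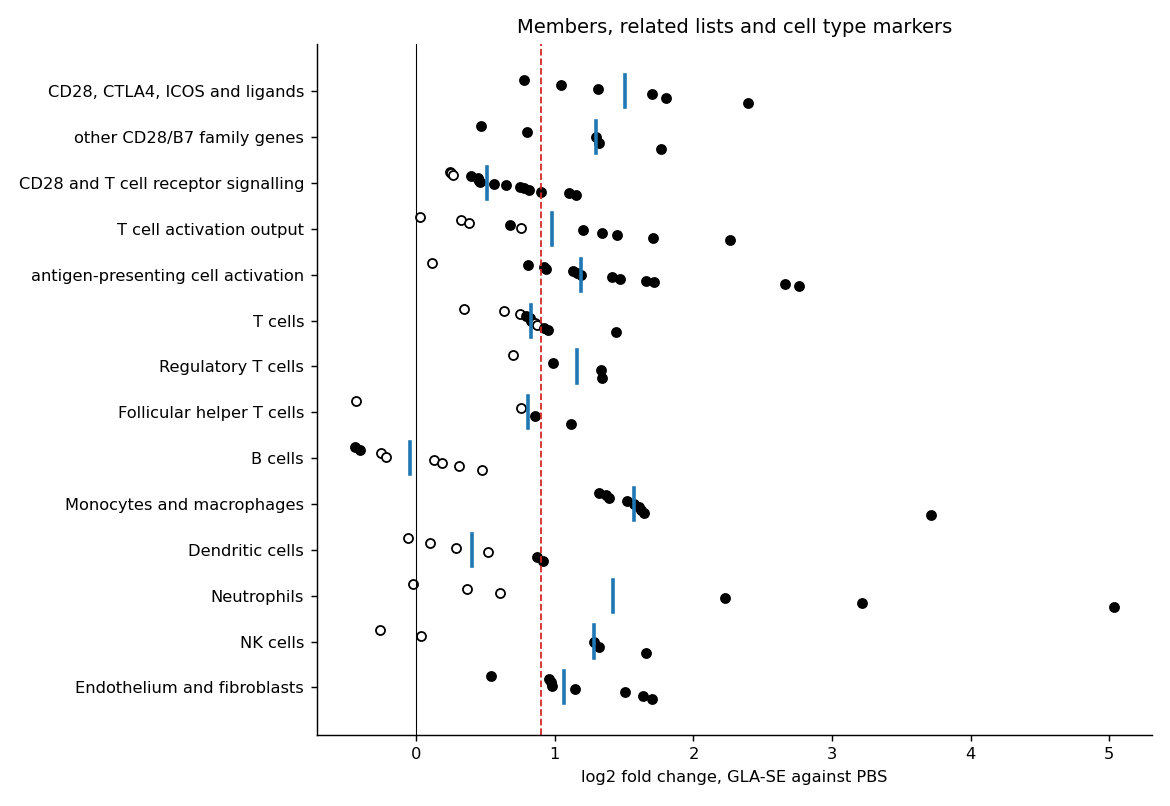
Log2 fold change of GLA-SE against PBS (x axis) for each gene of the 6 members, 4 related lists and 9 marker lists (rows), filled where edgeR's adjusted p was under 0.05, with the list median as a blue bar and the median of all tested genes, 0.90, as a dashed line. The members have a median of 1.51, and the B-cell markers are the list centred near 0.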

How the data were processed

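RNA from 12 whole A20 tumors was counted on the nCounter mouse PanCancer Immune Profiling Panel, and the authors deposited 1 table of counts for 770 genes. Per the study's methods nSolver was used to normalize, yet the values in the table were integers with unequal sums and unequal reference genes from tumor to tumor, and they were handled as raw counts. Whether a background was subtracted is not given in the sources used here. No reads were aligned and no build applies to the counts.

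Groups came from the sample titles. A geNorm ranking over all 12 tumors kept 16 of 20 reference genes, which gave 1 size factor per tumor. The 750 other genes were tested with edgeR 4.0.16 (quasi-likelihood, R 4.3.3) on the 8 tumors of each comparison, with Benjamini-Hochberg adjustment over all 750 and a threshold of 0.05. The SE of a log2 fold change was its size divided by the square root of F. Single values were also compared by the two-sided exact permutation test over 70 assignments, on log2(normalized count + 1). The script was tested on simulated data. Alternatives were other scalings, a filter of 20 counts in 4 tumors, DESeq2 1.42.0, limma 3.58.1 with a pseudocount of 1 or 10, 1 fit over 12 tumors, the replicate number as a block and leaving out each tumor. Precision is limited by 4 tumors per group and by the counts of the rarest genes.

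The members, gene lists and motifs were chosen with earlier results of these data known. Genes other than the 6 members were named by rule: the 3 closest to each member, and from each list the 3 smallest adjusted p in GLA-SE against PBS, any called lower, and Cd3e, Cd4, Cd8a, Cd79a, Csf1r, Foxp3 and Cd40. Another gene of the rule is not reported here. Pdcd1, Btla, Tnfsf4, Bcl6, Camp, Ltf, Mpo, Klra4, Klrb1c, Flt3, Cd207, Xcr1, Il2, Il4, Cd40lg and Bcl2l1 were added after their values were seen. Gene symbols were matched to RefSeq (GRCm38.p6), 754 by symbol, 8 by synonym and 8 not at all. Promoter windows came from the RefSeq table, which matched 3 of the 6 members.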

Additional observations from a re-analysis of the deposited data

Results flagged for a closer look

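A tumor was picked out where its gap to the nearest other tumor of its group was a large share of the group's whole range (Dixon's test at 95%). Of 48 sets of 4 values searched, 7 had such a tumor, and chance flags about 1 in 20 groups, or 2.4 of 48. The sets are not independent, since the members vary together.

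GLA-SE replicate 3 gave 3 of the 7. Its normalized count of Ctla4 was 343, against 145 to 174 in the other GLA-SE tumors, that of Icos was 477 against 149 to 202, and that of Icosl was 1269 against 482 to 540. The other 4 were log2 ratios within a tumor. Cd80 to Cd86 was -0.95 in SE replicate 1, against -1.74 to -1.65 in the other SE tumors. Cd28 to the T-cell markers was -2.02 in GLA-SE replicate 1, against -2.41 to -2.35, and -2.35 in SE replicate 4, against -1.30 to -1.20. Icos to the T-cell markers was -0.95 in PBS replicate 3, against -1.42 to -1.40.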

How the results depend on the processing

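Scaling changed the most. In GLA-SE against PBS the number of members called, 6 with the reference genes, was 0 under the panel median and 1 under TMM. Log2 fold changes that turned negative there were those of Cd28, Icosl and Cd86 under the panel median (-0.47, -0.32 and -0.016), of Cd28 under TMM (-0.10) and of Cd28 by DESeq2 with its own size factors (-0.040). DESeq2 with its own size factors and no scaling each called 4 members, the fit over 12 tumors 5, and the other alternatives without a tumor left out 6. Leaving out 1 tumor gave 5 to 6. Over the panel 516 genes were called (68.8%), 368 under the panel median (49.1%), 316 under TMM (42.1%) and 368 with no scaling (49.1%). DESeq2 with its own size factors called 346 (46.1%), and the fit over 12 tumors 255 (34%). The other alternatives called 58.5% to 74.6% of the genes tested, and leaving out 1 tumor 59.1% to 67.2%.

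In SE against PBS 0 members were called under every alternative run, and DESeq2 called 12 and 53 genes of the panel where edgeR called 0. Log2 fold changes turned negative for Ctla4, Icos, Icosl and Cd80 under the panel median (-0.41, -0.20, -0.054 and -0.38), TMM (-0.36, -0.10, -0.046 and -0.36) and no scaling (-0.29, -0.14, -0.0099 and -0.29), and for Ctla4, Icos and Cd80 by DESeq2 with its own size factors (-0.31, -0.074 and -0.30). With 1 tumor left out they ranged from -0.067 to 0.45 for Ctla4, -0.036 to 0.86 for Icos and -0.061 to 0.35 for Cd80, the lowest of each without SE replicate 4.

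In GLA-SE against SE the main test called 0 members, no scaling called 3, DESeq2 called 2 with either set of size factors, and the fit over 12 tumors called 1. Leaving out 1 tumor called 0. Log2 fold changes turned negative for Cd28, Icosl and Cd86 under the panel median (-0.52, -0.27 and -0.13) and for Cd28 under TMM (-0.17) and by DESeq2 with its own size factors (-0.23), and that of Cd28 ranged from -0.084 to 0.52 with 1 tumor left out. The genes called over the panel went from 16 to 0 under the panel median, 3 under TMM, 89 with no scaling, 80 and 118 by DESeq2, 79 in the fit over 12 tumors, and 4 to 105 with 1 tumor left out, the highest without SE replicate 4.

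Among the ratios, 3 changed sign with 1 tumor left out: Ctla4 to the T-cell markers in SE against PBS (-0.041 to 0.53), Cd80 to the B-cell markers in SE against PBS (-0.074 to 0.47) and Icosl to Cd86 in GLA-SE against SE (-0.26 to 0.023). In GLA-SE against SE the exact p rose from 0.0286 to 0.0571 for Icos to Cd28 with a pseudocount of 10 (1.07) and for Cd80 to the B-cell markers with the list median (1.79). The correlations of same-numbered tumors' deviations ran from -0.25 to 0.18. They showed no clear pairing by replicate number but, with 4 tumors per group, cannot exclude one. With the replicate block 6, 0 and 0 members and 439, 0 and 0 genes were called in the 3 comparisons. Of 366 alternative values of the members' log2 fold changes 312 kept their direction and their side of the threshold, 16 lost and 8 gained a call and 30 changed sign, and of 288 for the ratios 250, 29, 5 and 4 did so by unadjusted exact p. The causes of these changes were not tested.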
